A study of Arabidopsis thaliana with 24 samples.

Results

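The genes described here are 10 salicylate receptor, repressor and defence output genes of Arabidopsis thaliana, among 34218 genes measured by RNA-seq in leaves. They were taken by gene identifier: PR1, PR2 (BGL2 in the deposited table), PR5, PCR1 and AT1G76960 as output genes, NIMIN1 and NIMIN2 as NPR1-binding proteins, and NPR1, NPR3 and NPR4 as receptors. Some of them were chosen by their low FPKM in the BBX32 over-expressing line relative to the wild type, so the differences between that line and the wild type are given below as values without a test. The response of that line to light is also given without a test. The remaining comparisons were tested, but those that use wild-type libraries share the reference of the choice. The 24 libraries came from the line BBX32-10, which over-expresses the B-box gene BBX32, from hy5-2, a null mutant of the light-signalling transcription factor gene HY5, and from Col-0, the wild type and background of both. BBX32-10 is represented by 1 transgenic line, and the promoter that drives its transgene is not given in the sources used here. Plants of 35 days, raised in short days, either spent 3.5 h of the morning in high light (HL) of 1100 µmol m-2 s-1 from white LEDs or stayed in low light (LL) of 150 µmol. Each of the 6 groups held 4 libraries, each from the leaves of a different plant. The study set the lines side by side because both fail to acclimate to HL and may share affected genes.

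Salicylate is the hormone of defence against biotrophic pathogens, and leaves of short-day plants can accumulate it without infection. NPR1 binds salicylate and, with TGA transcription factors on promoter elements containing TGACG, switches on genes such as PR1. NPR3 and NPR4 also bind salicylate and act as co-repressors of the same genes, while NIMIN proteins bind NPR1 and dampen its activity. The secreted products include the antimicrobial PR1 protein, the glucanase PR2 and the thaumatin-like protein PR5.

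Depth recovered from the values ranged from 35408723 to 49341933 fragments per library, and 9 to 57840 fragments lay behind a value of these 10 genes. BBX32 was at 364 to 1049 FPKM in BBX32-10 HL and 810 to 897 FPKM in BBX32-10 LL, against 13.4 to 16.6 FPKM in Col-0 HL and 2.27 to 4.07 FPKM in Col-0 LL. HY5 stayed at or under 0.929 FPKM in the 8 hy5-2 libraries, against at least 6.26 FPKM in the 8 Col-0 libraries. In BBX32-10, HY5 was above Col-0, at 30.7 to 46.5 FPKM in HL and 33.0 to 41.0 FPKM in LL. Col-0 had 17.5 to 24.4 FPKM in HL and 6.26 to 8.36 FPKM in LL. Mesophyll markers were abundant in every group, and the root markers RHD6 and EXPA7 were at 0 in all 24 libraries. Summed levels of 6 leaf senescence genes overlapped among the groups. They were 42.0 to 138 FPKM in BBX32-10 HL, 6.22 to 147 FPKM in BBX32-10 LL, 53.4 to 81.9 FPKM in hy5-2 HL and 28.9 to 124 FPKM in hy5-2 LL. Col-0 had 49.2 to 87.6 FPKM in HL and 45.7 to 84.9 FPKM in LL. SAG13 made up much of these sums, at 129 of 138 FPKM in BBX32-10 HL replicate 4 and 72.5 of 147 FPKM in BBX32-10 LL replicate 3. SAG12, the defining marker, was at or under 0.656 FPKM. One library stood apart. BBX32-10 HL replicate 1 had the lowest BBX32 level of its line and the highest level of 8 of the 10 genes in its group, so differences from Col-0 in BBX32-10 HL are also given without it. That choice was made after seeing the data. For those 8 genes leaving out their highest plant can only enlarge the difference, so the larger folds below are descriptions. Fewer cells expressing a gene and less RNA per cell cannot be told apart in these bulk samples.

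Upstream sequence is shown for the genes whose levels differed most between groups and that held TGACG, the core of the TGA factor site, within 1000 bases before the annotated start. All windows come from the RefSeq TAIR10.1 genome and overlap no annotated exon. Each is written 5′ to 3′ on the gene's own strand, with TGACG and TTGAC, the core of the site of WRKY factors, in capitals. On the opposite strand these read CGTCA and GTCAA, and the motifs overlap where they share letters. The PR1 window (chr2:6243058-6243157, minus strand) lies 616 to 517 bases before the start, the PR2 window (chr3:21190180-21190279, minus strand) 312 to 213 bases before it, and the PCR1 window (chr1:5134191-5134290, minus strand) 430 to 331 bases before it. The windows of NIMIN1 (chr1:498793-498892, minus strand) and NIMIN2 (chr3:9471052-9471151, minus strand) lie 353 to 254 and 112 to 13 bases before their starts.
PR1: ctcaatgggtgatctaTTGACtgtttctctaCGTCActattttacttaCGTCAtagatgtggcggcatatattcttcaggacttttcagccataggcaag
PR2: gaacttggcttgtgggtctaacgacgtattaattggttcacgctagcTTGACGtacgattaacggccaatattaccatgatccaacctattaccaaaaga
PCR1: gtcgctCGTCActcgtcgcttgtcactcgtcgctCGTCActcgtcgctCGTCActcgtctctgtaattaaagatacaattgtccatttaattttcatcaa
NIMIN1: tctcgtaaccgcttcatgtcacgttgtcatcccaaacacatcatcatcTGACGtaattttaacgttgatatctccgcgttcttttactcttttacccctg
NIMIN2: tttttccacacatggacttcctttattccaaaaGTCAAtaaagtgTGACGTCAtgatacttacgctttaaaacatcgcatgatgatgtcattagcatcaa

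Within 1000 bases before the start, 7 of the 10 genes held TGACG on either strand, against 54.12% of 27443 Arabidopsis promoters of that length. TTGAC was held by 7 of the 10, against 88.12% of promoters. PCR1 had 6 copies of TGACG and NPR3 had 7, while NPR1, PR5 and AT1G76960 had none in that window. In NIMIN2 a TGACG on each strand overlaps to form a palindrome, and the nearer copy lies 64 bases before the start. A match describes letters and not a bound site.

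PR1 (AT2G14610, chromosome 2, 6241640 to 6242541, 1 exon) encodes a small secreted protein and is the common marker of salicylate signalling. BBX32-10 plants held PR1 at 80.3, 9.02, 17.0 and 14.3 FPKM in HL, against 9.27, 17.4, 18.5 and 27.5 FPKM in LL. Plants of hy5-2 held it at 366, 52.7, 340 and 127 FPKM in HL, against 228, 450, 415 and 280 FPKM in LL. Col-0 plants held PR1 at 99.0, 125, 221 and 224 FPKM in HL, against 748, 665, 225 and 164 FPKM in LL. Every BBX32-10 plant lay below every Col-0 plant of the same light, whereas hy5-2 and Col-0 plants overlapped in both lights. The mean was 24.8-fold lower in BBX32-10 LL than in Col-0 LL and 5.54-fold lower in BBX32-10 HL than in Col-0 HL, or 12.4-fold lower in HL without BBX32-10 HL replicate 1.

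PR2 (AT3G57260, chromosome 3, 21188397 to 21189967, 2 exons) encodes a beta-1,3-glucanase that attacks fungal cell walls. BBX32-10 plants held PR2 at 84.1, 6.44, 16.6 and 54.2 FPKM in HL, against 25.7, 26.7, 11.7 and 15.5 FPKM in LL. Plants of hy5-2 had 498, 258, 758 and 417 FPKM in HL, against 284, 508, 403 and 423 FPKM in LL. Col-0 plants held PR2 at 209, 288, 607 and 457 FPKM in HL, against 1198, 506, 265 and 328 FPKM in LL. BBX32-10 was again below Col-0 without overlap in both lights, by 28.9-fold in LL and 9.67-fold in HL (15.1-fold without the replicate that stood apart). The HL and LL plants of each genotype overlapped.

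PR5 (AT1G75040, chromosome 1, 28177670 to 28179022, 2 exons) encodes a thaumatin-like protein. BBX32-10 plants held PR5 at 40.4, 3.25, 7.03 and 6.85 FPKM in HL, against 9.84, 11.1, 8.64 and 6.26 FPKM in LL. Plants of hy5-2 were at 343, 106, 541 and 161 FPKM in HL, against 285, 487, 438 and 384 FPKM in LL. Col-0 plants held PR5 at 110, 176, 288 and 273 FPKM in HL, against 767, 544, 270 and 197 FPKM in LL. Every BBX32-10 plant was below every Col-0 plant, and the mean was 49.6-fold below Col-0 in LL and 14.7-fold below it in HL (37.1-fold without BBX32-10 HL replicate 1).

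PCR1 (AT1G14880, chromosome 1, 5132506 to 5133860, 4 exons) is named for cadmium resistance, a role shown for this small membrane protein in yeast and Arabidopsis. BBX32-10 plants held PCR1 at 23.7, 0.441, 1.55 and 1.16 FPKM in HL, against 4.74, 4.98, 3.51 and 2.71 FPKM in LL. Plants of hy5-2 expressed it at 184, 23.9, 94.0 and 46.3 FPKM in HL, against 279, 490, 397 and 609 FPKM in LL. Col-0 plants held PCR1 at 33.2, 68.1, 78.8 and 114 FPKM in HL, against 788, 764, 295 and 199 FPKM in LL. HL plants lay wholly below LL plants in hy5-2 and in Col-0, as they did for 16% and 22% of all genes tested, whereas those of the 3 PR genes overlapped. PCR1 also had the largest difference between BBX32-10 and Col-0 of the 10 genes in LL, 128-fold lower. In HL it was 10.9-fold lower, or 69.9-fold without the replicate that stood apart, which alone held 23.7 FPKM.

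AT1G76960 (chromosome 1, 28920317 to 28920976, 2 exons) has no gene name in the deposited table. BBX32-10 plants held AT1G76960 at 137, 2.01, 28.5 and 6.52 FPKM in HL, against 7.23, 6.85, 7.64 and 6.88 FPKM in LL. Plants of hy5-2 showed 453, 421, 689 and 512 FPKM in HL, against 292, 457, 301 and 402 FPKM in LL. Col-0 plants held AT1G76960 at 272, 346, 523 and 506 FPKM in HL, against 505, 368, 297 and 284 FPKM in LL. It was the most even of the 10 genes within BBX32-10 LL, with a highest plant 1.11-fold above the lowest, and the most uneven within BBX32-10 HL, at 68.3-fold. BBX32-10 lay 50.8-fold below Col-0 in LL and 9.44-fold below it in HL, or 33.3-fold without BBX32-10 HL replicate 1.

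**Figure D1:**
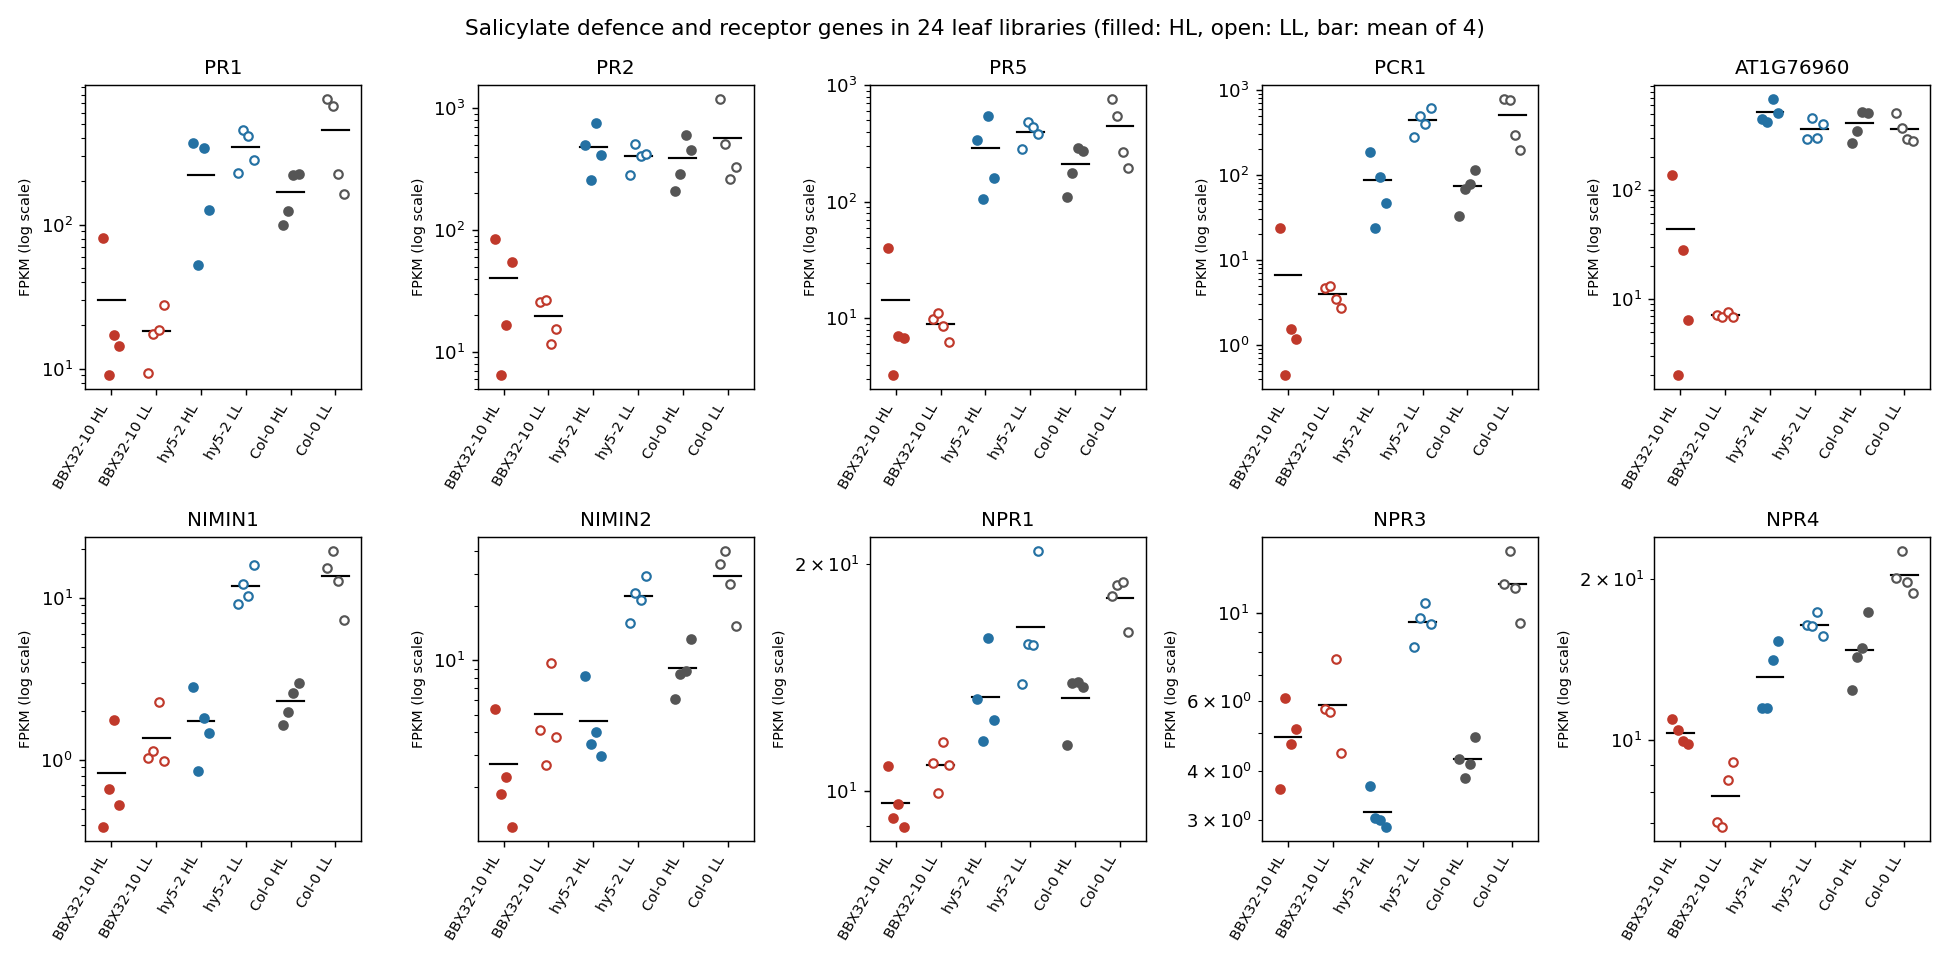
FPKM on a log axis of each of the 10 genes in 24 leaf libraries, with 1 point per plant, filled for HL and open for LL, and a bar at the mean of the 4 plants of a group. The 5 output genes and both NIMIN genes are low in BBX32-10 in LL, the NPR genes differ far less, and the highest BBX32-10 HL point of PR1, PR5, PCR1 and AT1G76960 (80.3, 40.4, 23.7 and 137 FPKM) is the same plant.

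NIMIN1 (AT1G02450, chromosome 1, 497917 to 498539, 1 exon) encodes an NPR1-binding protein that restrains PR1 induction. BBX32-10 plants held NIMIN1 at 0.387, 0.664, 1.77 and 0.525 FPKM in HL, against 1.03, 1.14, 2.27 and 0.989 FPKM in LL. Plants of hy5-2 carried 2.83, 0.859, 1.81 and 1.47 FPKM in HL, against 9.12, 12.1, 10.3 and 15.9 FPKM in LL. Col-0 plants held NIMIN1 at 1.64, 1.97, 2.60 and 2.98 FPKM in HL, against 15.2, 19.5, 12.6 and 7.33 FPKM in LL. In LL, BBX32-10 lay 10.1-fold below Col-0 without overlap. In HL the lines overlapped and the mean was 2.75-fold lower in BBX32-10 (2.33-fold without the replicate that stood apart), where 9 to 50 fragments lay behind a value.

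NIMIN2 (AT3G25882, chromosome 3, 9470357 to 9471039, 1 exon) encodes a related NPR1-binding protein that responds early to salicylate. BBX32-10 plants held NIMIN2 at 5.38, 1.82, 2.26 and 1.2 FPKM in HL, against 4.11, 2.64, 9.67 and 3.76 FPKM in LL. Plants of hy5-2 gave 8.16, 3.45, 4.01 and 2.94 FPKM in HL, against 16.1, 23.7, 21.6 and 29.1 FPKM in LL. Col-0 plants held NIMIN2 at 6.13, 8.42, 8.70 and 13.0 FPKM in HL, against 34.2, 40.5, 26.5 and 15.5 FPKM in LL. The HL plants of hy5-2 and of Col-0 were all below the LL plants of the same genotype. BBX32-10 was below Col-0 without overlap, by 5.78-fold in LL and 3.41-fold in HL (5.16-fold without the replicate that stood apart).

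The 3 receptor genes varied over a far narrower range. NPR1 (AT1G64280, chromosome 1, 23852748 to 23855658, 4 exons) is the co-activator. BBX32-10 plants held NPR1 at 10.8, 9.21, 9.61 and 8.97 FPKM in HL, against 10.9, 9.96, 11.6 and 10.8 FPKM in LL. Plants of hy5-2 measured 13.3, 11.7, 16.0 and 12.4 FPKM in HL, against 13.9, 15.7, 15.6 and 20.8 FPKM in LL. Col-0 plants held NPR1 at 11.5, 13.9, 14.0 and 13.7 FPKM in HL, against 18.2, 18.8, 19.0 and 16.3 FPKM in LL. BBX32-10 lay below Col-0 in each light without overlap, by 1.66-fold in LL and 1.38-fold in HL (1.43-fold without BBX32-10 HL replicate 1). NPR1 values are uncertain because its exons overlap the antisense genes AT1G08667 over 214 bases and AT1G64270 over 38 bases, and counting by strand is not stated.

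NPR3 (AT5G45110, chromosome 5, 18228768 to 18231588, 4 exons) encodes a co-repressor and adaptor for protein degradation. BBX32-10 plants held NPR3 at 3.59, 6.10, 4.67 and 5.10 FPKM in HL, against 5.72, 5.65, 7.66 and 4.43 FPKM in LL. Plants of hy5-2 contained 3.66, 3.04, 3.01 and 2.89 FPKM in HL, against 8.25, 9.76, 10.6 and 9.41 FPKM in LL. Col-0 plants held NPR3 at 4.29, 3.83, 4.16 and 4.89 FPKM in HL, against 11.9, 14.4, 11.6 and 9.44 FPKM in LL. In LL the BBX32-10 plants were 2.02-fold below Col-0 without overlap. In HL NPR3 was the only one of the 10 genes with a higher mean in BBX32-10 than in Col-0, 4.86 ± 1.04 against 4.29 ± 0.439 FPKM (SD, n = 4 each), and the plants overlapped. Without BBX32-10 HL replicate 1 its mean was 5.29 FPKM.

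NPR4 (AT4G19660, chromosome 4, 10696266 to 10698811, 4 exons) encodes the other co-repressor. BBX32-10 plants held NPR4 at 11.0, 10.5, 9.98 and 9.83 FPKM in HL, against 7.04, 6.89, 8.43 and 9.11 FPKM in LL. Plants of hy5-2 reached 11.5, 11.5, 14.2 and 15.3 FPKM in HL, against 16.4, 16.4, 17.3 and 15.7 FPKM in LL. Col-0 plants held NPR4 at 12.4, 14.3, 14.9 and 17.4 FPKM in HL, against 20.1, 22.6, 19.8 and 18.8 FPKM in LL. HL plants were above LL plants in BBX32-10 and below them in hy5-2 and in Col-0, each without overlap. BBX32-10 was below Col-0 by 2.58-fold in LL and by 1.43-fold in HL (1.46-fold without BBX32-10 HL replicate 1). The sequence of its promoter just before the start (chr4:10698812-10698911, minus strand, 100 to 1 bases before it) is shown because it holds TGACG on both strands.
NPR4: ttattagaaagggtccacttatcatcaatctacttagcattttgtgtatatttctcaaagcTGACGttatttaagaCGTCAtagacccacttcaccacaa

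Ordered by group means, Col-0 LL was highest for 9 of the 10 genes and hy5-2 HL for AT1G76960. Both BBX32-10 groups came last for PR1, PR2, PR5, PCR1, NPR1, NPR4, NIMIN1 and AT1G76960. For PR2, PR5, PCR1 and AT1G76960 no hy5-2 or Col-0 plant fell within the range of the BBX32-10 plants, whereas for PR1 hy5-2 HL replicate 2 (52.7 FPKM) lay below BBX32-10 HL replicate 1 (80.3 FPKM). For NPR3 the lowest group was hy5-2 HL, below Col-0 HL without overlap (10.3% of all genes tested), and for NIMIN2 the hy5-2 HL plants fell within the range of the BBX32-10 plants.

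Across the 10 genes, the comparison of BBX32-10 with Col-0 that had guided the choice gave a median difference of -3.48 on the log2(FPKM + 1) scale in LL and -2.20 in HL. Over all 17788 genes tested the medians were 0.10 and 0.02. All 10 genes lay below Col-0 without overlap in LL, where this held for 18.2% of all genes tested, and 8 of 10 in HL, where it held for 10.6%. The median in HL was -2.67 without BBX32-10 HL replicate 1. Differences were largest for the output genes, at -4.36 to -6.47 in LL, intermediate for NIMIN1 and NIMIN2 at -2.59 and -2.36, and smallest for NPR4, NPR3 and NPR1 at -1.27, -0.91 and -0.69. These values restate the choice of genes and support nothing further.

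In hy5-2, 6 of the 10 genes fell in HL, where 20.4% of all genes tested were called lower by limma. The groups compared held none of the BBX32-10 and Col-0 libraries that had guided the choice, but the spread was estimated over all 24 libraries. The 3 receptor genes, both NIMIN genes and PCR1 made up the 6. NIMIN1 averaged 1.74 ± 0.825 FPKM in HL and 11.8 ± 2.98 FPKM in LL (SD, n = 4 each), a log2 change of -2.25 (SE 0.26, limma adjusted p 7.97e-07). NPR3 averaged 3.15 ± 0.349 FPKM in HL and 9.51 ± 0.983 FPKM in LL, a log2 change of -1.34 (SE 0.14, limma adjusted p 1.59e-07). Both are negative regulators, NIMIN1 through NPR1 and NPR3 at the promoters. PCR1 fell by 2.67 on the log2 scale (SE 0.68, limma adjusted p 0.00324) and NIMIN2 by 2.12 (SE 0.35, limma adjusted p 5.04e-05). Smaller falls were called for NPR4, by 0.32 (SE 0.10, limma adjusted p 0.0163), and NPR1, by 0.28 (SE 0.11, limma adjusted p 0.0345). The NPR1 call was lost after rescaling of the libraries (limma adjusted p 0.0704), in a fit of the hy5-2 libraries alone (0.129) and without hy5-2 LL replicate 4 or hy5-2 HL replicate 1, 2 or 4. That of NPR4 was lost without hy5-2 HL replicate 1 or 2.

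In Col-0 the 6 genes that fell in HL were those of hy5-2, against 21.6% of all genes called lower. Col-0 libraries had been the reference of the choice, which may have favoured genes high in Col-0 LL. The tests within Col-0 are therefore not independent of the choice. NIMIN1 averaged 2.30 ± 0.607 FPKM in HL and 13.7 ± 5.09 FPKM in LL (SD, n = 4 each), a log2 change of -2.10 (SE 0.26, limma adjusted p 9.86e-07). NPR3 averaged 4.29 ± 0.439 FPKM in HL and 11.8 ± 2.04 FPKM in LL, a log2 change of -1.27 (SE 0.14, limma adjusted p 1.38e-07). The other changes were -2.67 for PCR1, -1.55 for NIMIN2, -0.44 for NPR4 and -0.42 for NPR1, with limma adjusted p between 0.00086 and 0.00238. Within the receptors, the NPR3 to NPR1 ratio of FPKM was 0.276 to 0.373 in Col-0 HL plants, against 0.581 to 0.769 in Col-0 LL plants, and 0.188 to 0.276 in hy5-2 HL plants, against 0.451 to 0.679 in hy5-2 LL plants. These ranges did not overlap within a genotype.

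The PR genes and AT1G76960 did not pass the test in either genotype, and their plants differed widely. PR1 changed in HL by -0.95 in hy5-2 (SE 0.62, limma adjusted p 0.22) and by -1.22 in Col-0 (SE 0.62, limma adjusted p 0.105). Without Col-0 LL replicate 4 the PR1 fall in Col-0 was called, at -1.61 (limma adjusted p 0.0447). PR5 had -0.71 in hy5-2 and -0.96 in Col-0 (SE 0.56 each), and PR2 had 0.18 and -0.42 (SE 0.57 each). AT1G76960 had 0.51 in hy5-2 and 0.17 in Col-0 (SE 0.66 each). In a fit of only the hy5-2 libraries the value of AT1G76960 was called (limma adjusted p 0.0464).

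**Figure D2:**
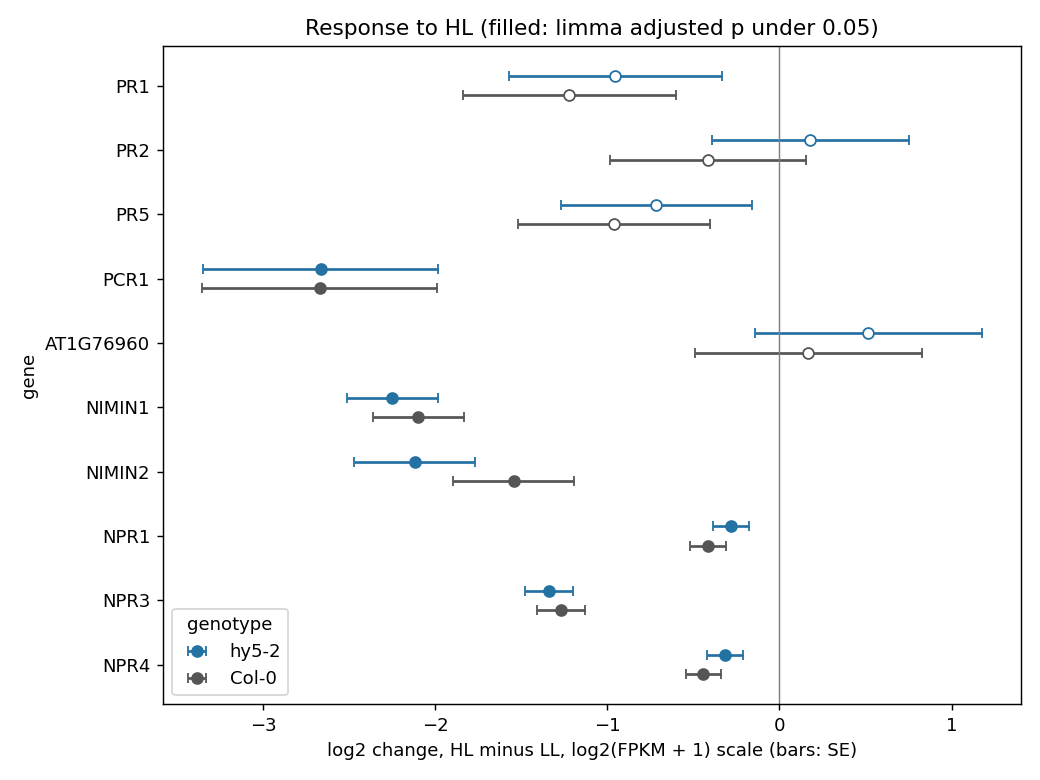
Log2 change of each of the 10 genes in HL minus LL, on the log2(FPKM + 1) scale, in hy5-2 (upper point of each pair) and Col-0 (lower point), with bars of 1 SE from the limma fit and filled points for adjusted p under the threshold. PCR1, NIMIN1, NIMIN2, NPR1, NPR3 and NPR4 have filled points on the negative side in both genotypes, and PR1, PR2, PR5 and AT1G76960 have open points with wide bars, which cross 0 for PR2 and AT1G76960.

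PCR1 and PR2 therefore stood in different proportions in the 2 lights. Per library, the ratio of PCR1 to PR2 FPKM was 0.0926 to 0.369 in hy5-2 HL, against 0.966 to 1.44 in hy5-2 LL. In Col-0 it was 0.130 to 0.249 in HL, against 0.604 to 1.51 in LL. Neither genotype showed overlap between its lights, although PR2 alone overlapped in both. In BBX32-10 the ratio was 0.0214 to 0.282 in HL, against 0.175 to 0.300 in LL. The overlap came from BBX32-10 HL replicate 1, since the other 3 HL plants had at most 0.0932. The NIMIN1 to NPR1 ratio moved likewise, at 0.0736 to 0.213 in hy5-2 HL against 0.657 to 0.771 in hy5-2 LL, and at 0.142 to 0.217 in Col-0 HL against 0.451 to 1.04 in Col-0 LL. These ratios restate the larger fall of their first gene. Other pairs differed. PR5 to PR1 and NPR4 to NPR1 overlapped between the lights in both genotypes, and NIMIN2 to NIMIN1 in hy5-2 only. AT1G76960 to PCR1 did not overlap in either. The share of all gene pairs that separate was not computed.

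**Figure D3:**
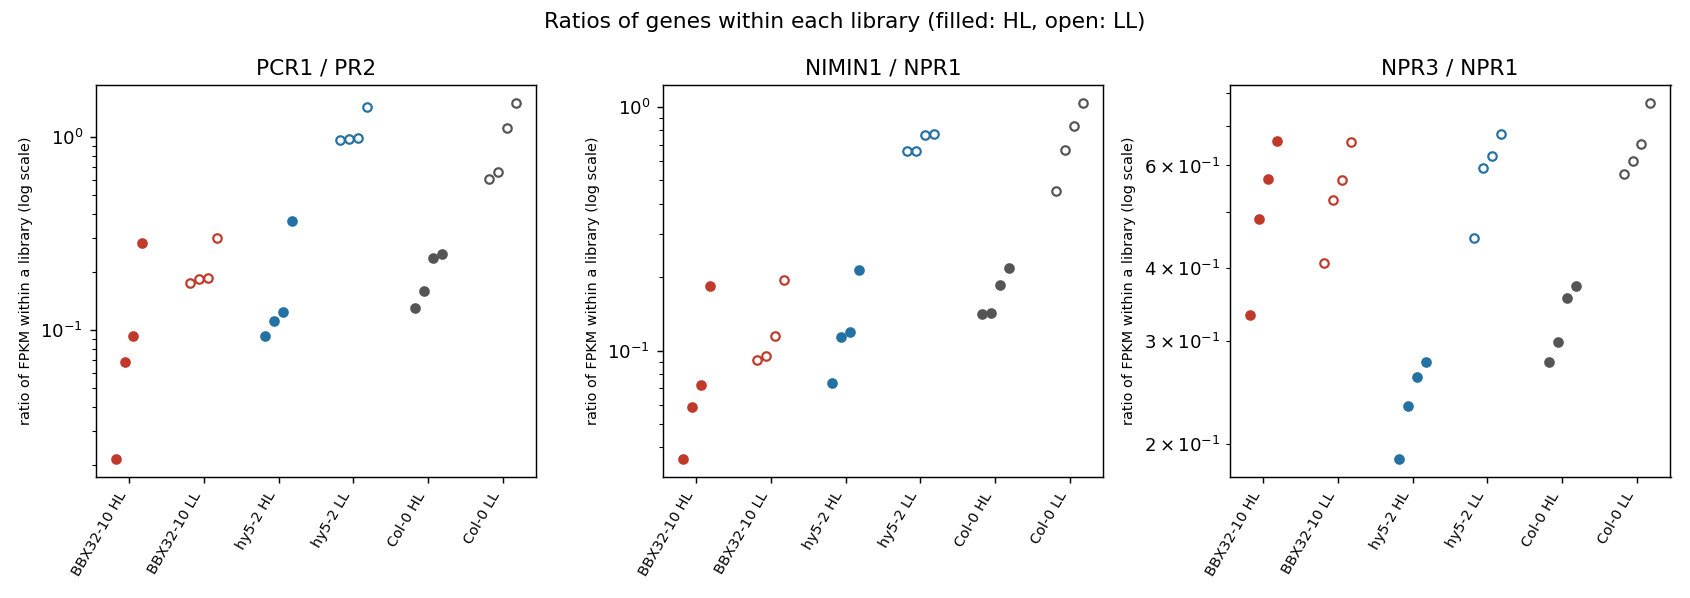
Ratio of 2 genes' FPKM within each library on a log axis, for PCR1 to PR2, NIMIN1 to NPR1 and NPR3 to NPR1, with 1 point per plant, filled for HL and open for LL. In hy5-2 and in Col-0 the HL points lie below the LL points for all 3 ratios, while in BBX32-10 the points of the 2 lights overlap, for PCR1 to PR2 only through BBX32-10 HL replicate 1 (0.282).

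Loss of HY5 was then compared with the wild type. The Col-0 libraries had been the reference of the choice, so these tests are not independent of it. The differences may lean towards lower values in hy5-2. None of the 10 genes was called by limma in hy5-2 against Col-0, whether in LL (0.371% of all genes called), in HL (2.41%) or for the interaction of genotype with light (0.652%), and a voom fit to the recovered fragments also called 0. At an unadjusted p under 0.05 the interaction gave 0 genes, LL gave 1 and HL gave 2. In LL it was NPR4, at 16.5 ± 0.685 FPKM in hy5-2 and 20.3 ± 1.62 FPKM in Col-0 (SD, n = 4 each), a difference of -0.29 (SE 0.10, limma adjusted p 0.214), with hy5-2 plants below Col-0 plants without overlap as for 5.5% of all genes. In HL these were NPR3, with a difference of -0.35 (SE 0.14, limma adjusted p 0.223), and NIMIN2, with -0.88 (SE 0.35, limma adjusted p 0.235). For the output genes the SE of the difference was 0.56 to 0.68 on the log2 scale. A call needed a change of several SE, so changes well above these values could also have gone uncalled. Leaf PR1 averaged 343 ± 106 FPKM in hy5-2 LL and 450 ± 299 FPKM in Col-0 LL, and 221 ± 155 FPKM in hy5-2 HL and 167 ± 64.5 FPKM in Col-0 HL.

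Within BBX32-10 the response to HL is given as values, since the line guided the choice. With all 8 plants, NPR4 was the only gene whose HL and LL plants did not overlap, at 10.3 ± 0.517 FPKM in HL and 7.87 ± 1.08 FPKM in LL (SD, n = 4 each), a log2 difference of 0.36. HL plants lay wholly above LL plants for 10.5% of all genes tested. Without BBX32-10 HL replicate 1, a comparison chosen after seeing the data, NPR4 was still above, as were 18.3% of all genes, and 3 genes lay wholly below LL, as did 12% of all genes. These were PCR1, at 0.441 to 1.55 FPKM in HL and 2.71 to 4.98 FPKM in LL, NIMIN2, at 1.2 to 2.26 FPKM in HL and 2.64 to 9.67 FPKM in LL, and NPR1, at 8.97 to 9.61 FPKM in HL and 9.96 to 11.6 FPKM in LL. NPR3, which fell in hy5-2 and in Col-0, differed by -0.22 in BBX32-10, NIMIN1 by -0.39 and NPR1 by -0.15. The NIMIN1 value is shrunk by the log2(FPKM + 1) scale, since its means were 0.836 FPKM in HL and 1.36 FPKM in LL. Their ratio was 0.615, so the size of its response cannot be set against that of the other genotypes. PR1, PR2, PR5 and AT1G76960 differed by 0.27, 0.50, 0.07 and 1.10. Without BBX32-10 HL replicate 1 their HL means were 13.4, 25.8, 5.71 and 12.3 FPKM, against LL means of 18.2, 19.9, 8.96 and 7.15 FPKM.

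Relatives of the 10 genes were read next, to see which members of each family were low in BBX32-10. Of 15 listed relatives 9 were tested. BG3, the glucanase gene that neighbours PR2, averaged 0.316 ± 0.106 FPKM in BBX32-10 LL and 35.2 ± 15.2 FPKM in Col-0 LL. The log2(FPKM + 1) difference was -4.69 (SE 0.41, limma adjusted p 1.04e-08). This scale understates changes of low genes, and the ratio of means was 0.00897. In HL BG3 was lower in BBX32-10 by 2.48 (SE 0.41, limma adjusted p 0.000136), with a ratio of means of 0.0323. Unlike PR2, BG3 also fell in HL, by 2.05 in hy5-2 (limma adjusted p 0.00033) and by 2.39 in Col-0 (limma adjusted p 4.09e-05). TLP-3, a neighbour and relative of PR5, was lower in BBX32-10 LL by 1.41 (limma adjusted p 8.70e-06), had -0.18 in BBX32-10 HL against Col-0 HL (limma adjusted p 0.563), and fell in HL by 1.61 in hy5-2 and 1.3 in Col-0. The difference between each pair of neighbours was not tested.

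NIMIN3, another NPR1-binding protein, was lower in BBX32-10 LL by 0.61 (limma adjusted p 0.000686) and differed by 0.12 in HL without passing the test. It was the only relative called between hy5-2 and Col-0, in HL, where 2.41% of all genes were called. It averaged 7.56 ± 0.708 FPKM in hy5-2 HL and 11.9 ± 2.77 FPKM in Col-0 HL (SD, n = 4 each), a log2 difference of -0.57 (SE 0.13, limma adjusted p 0.0165). PR-1-LIKE, a homolog of PR1, was low, at a mean of 3.05 FPKM in BBX32-10 LL and 1.40 FPKM in Col-0 LL, and the plants overlapped. It was higher in BBX32-10 LL by 0.74 (SE 0.23, limma adjusted p 0.0142) and had 0.52 in HL (SE 0.23, limma adjusted p 0.11). PCR2, next to PCR1 on chromosome 1, differed between BBX32-10 LL and Col-0 LL by under 0.01 (SE 0.31). PCR8 fell in HL by 1.05 in hy5-2 and by 1.35 in Col-0, and BOP2 rose in Col-0 by 0.43 (limma adjusted p 0.0223). OSM34 and NIMIN1B were called in no comparison.

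The wider pathway was described with 5 lists of 53 genes, the relatives among them, of which 43 were tested. The lists were chosen with earlier results of these data known, so their counts are a description and support nothing further. In BBX32-10 LL 24 were lower and 4 higher than in Col-0, where 16.7% and 25.8% of all genes tested were called. In all genes 60.7% of the calls were higher, and 47.7% after rescaling of the libraries. In HL 16 were lower and 2 higher, against 12.7% and 10.9% of all genes, and the counts were also 16 and 2 without BBX32-10 HL replicate 1, where 15.7% and 19.6% of all genes were called. All 16 of the lower genes in HL were among the 24 in LL.

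Genes of salicylate synthesis and its upstream signalling were lower in 9 of 12 cases in LL and 7 of 12 in HL, against 16.7% and 12.7% of all genes tested. EDS1B, a defence signalling lipase-like protein, was at 0.648 FPKM in BBX32-10 LL and 10.1 FPKM in Col-0 LL, a ratio of 0.0641. Its log2(FPKM + 1) difference was -2.76 (SE 0.21, limma adjusted p 2.31e-09). SARD1, a transcription factor that activates salicylate synthesis, was lower in LL by 2.27, and its relative CBP60g in HL by 1.01. NDR1, a membrane protein of resistance signalling, was lower in HL by 1.5 (SE 0.22, limma adjusted p 4.20e-05). In this and the following pathway lists, genes were named because their differences were the largest among those called. Only ICS2 and EPS1 of this list were higher, and both are named outside that rule, after their values were seen. ICS2, the minor isochorismate synthase, was higher by 0.69 in LL and 0.86 in HL, and EPS1, a late enzyme of the pathway, by 0.90 and 0.58 (limma adjusted p at most 0.009).

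All 8 salicylate-induced regulators were lower in BBX32-10 LL and 5 of 8 in HL, where 16.7% and 12.7% of all genes tested were. WRKY70, a transcription factor downstream of NPR1, was at 11.9 to 22.2 FPKM in BBX32-10 LL and 99.0 to 159 FPKM in Col-0 LL, a log2 difference of -2.91 (SE 0.34, limma adjusted p 6.51e-07). In HL it was lower by 2.36, and its close relative WRKY54 was lower by 2.59 in LL and 2.51 in HL. Among TGA factors and NPR partners 2 of 10 were called, and both were lower in each light, a share near that of all genes. TGA3 was lower by 0.81 in LL and 0.73 in HL, and TGA7 by 0.83 and 0.53.

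The systemic acquired resistance list had 4 tested genes. ALD1, an enzyme of pipecolate synthesis, was at 0.105 FPKM in BBX32-10 LL and 10.1 FPKM in Col-0 LL, a ratio of 0.0104. Its log2(FPKM + 1) difference was -3.04 (SE 0.46, limma adjusted p 1.54e-05). ALD1 was also lower in HL, by 1.83. SARD4, of the same pathway, was lower in LL by 1.58, while AZI1, a lipid transfer protein named after its values were seen, was higher in LL by 1.11 (limma adjusted p 0.0131).

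Of the same 43 genes 23 fell and 2 rose in HL in hy5-2, where 20.4% and 23.1% of all genes were called, and 23 fell and 2 rose in Col-0, where 21.6% and 30% were. After rescaling of the libraries, 25 fell and 2 rose in Col-0, against 27.6% and 26% of all genes, and 48.5% of all calls were higher in place of 58.2%. Of the 23 lower genes in each, 21 were shared. In BBX32-10, 8 were lower and 1 higher in HL, where 8.85% and 10.7% of all genes tested were called. Without BBX32-10 HL replicate 1, 13 were lower and 1 higher, against 8.29% and 13% of all genes. The higher gene was SARD4. Between hy5-2 and Col-0 only NIMIN3 of the 43 was called in HL, a share near the 2.41% of all genes. LL and the interaction gave 0 of 43, where 0.371% and 0.652% of all genes were called. Of 9 jasmonate and ethylene defence genes, 5 were lower in BBX32-10 LL and 4 in BBX32-10 HL than in Col-0, where 16.7% and 12.7% of all genes were. Of 9 secretory genes linked to NPR1, 7 were lower in LL and 2 in HL, the second a share near that of all genes. Of 5 leaf senescence genes tested, 1 was lower in LL and 1 higher in HL.

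Finally, the differences between plants of 1 group were compared across genes, as deviations of log2(FPKM + 1) from the group mean over 24 libraries. The libraries of a group share their growth and exposure, and such a likeness is a description. PR5 followed PR1 with Pearson r 0.897 and Spearman rho 0.873, rank 2 among 17787 other genes. PCR1 followed it with r 0.873 (rho 0.84, rank 4), PR2 with 0.696, NIMIN2 with 0.663 and AT1G76960 with 0.654. Lower values were found for NPR1 (0.502), NPR4 (0.447), NIMIN1 (0.438) and NPR3 (-0.014). Without the 2 libraries of most extreme PR1, PR5 had r 0.845 and PCR1 0.807, while NPR3 had 0.212, and in the 16 hy5-2 and Col-0 libraries alone NPR3 had 0.626 and NIMIN1 0.797.

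The 5 other genes most like PR1 were AT3G15536, which has no annotated product (r 0.908), VSR6, annotated as a vacuolar sorting receptor (0.890), AT5G43910, a carbohydrate kinase family gene (0.867), AT4G14390, an ankyrin repeat gene (0.864), and AT5G24200, an alpha/beta hydrolase gene (0.861). Ranks depended on the setting. With a pseudocount of 0.1 VSR6 ranked 1, AT3G15536 24 and AT4G14390 47. In the 16 hy5-2 and Col-0 libraries these 5 genes ranked from 8 to 71, PR5 ranked 2 and PCR1 16. Without the 2 libraries of most extreme PR1, PR5 ranked 3 and PCR1 11. Replicate 4 of Col-0 LL was lowest in its group for 9 of the 10 genes, as were replicate 1 of Col-0 HL and replicate 1 of hy5-2 LL. Replicate 2 of hy5-2 HL was lowest for 8. Within Col-0 LL the highest PR1 plant was 4.56-fold above the lowest, and NPR1 differed 1.17-fold.

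**Figure D4:**
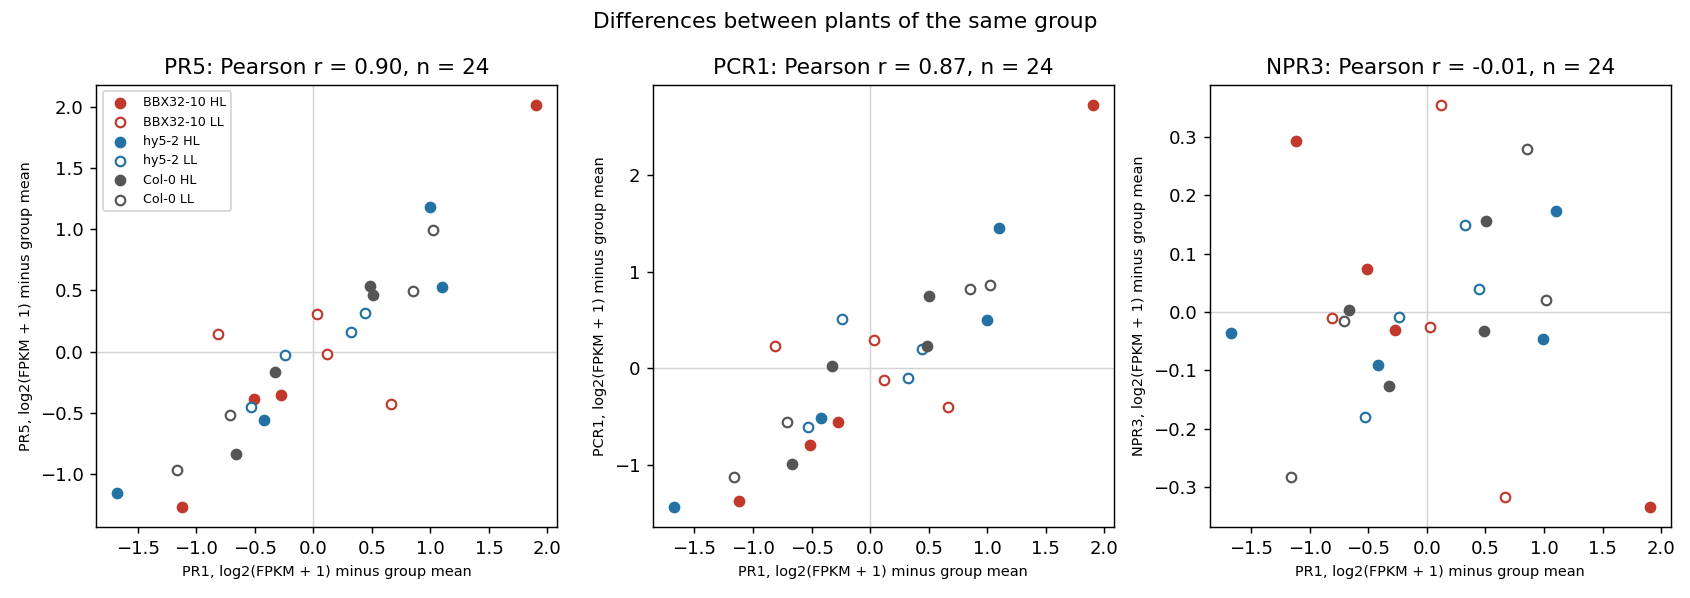
Deviation of each library from its group mean on the log2(FPKM + 1) scale, PR1 on the horizontal axis and PR5, PCR1 or NPR3 on the vertical axis, with 24 points coloured by genotype, filled for HL and open for LL. PR5 and PCR1 rise with PR1 (r 0.90 and 0.87), and NPR3 shows no such relation over all libraries (r -0.01), with BBX32-10 HL replicate 1 at the far right.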

How the data were processed

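Polyadenylated leaf RNA was sequenced by a service provider, per the labels' protocols. The authors deposited FPKM (fragments scaled to transcript length and library depth) for 34218 genes; the submitters' processing notes name HISAT2 2.0.5, HTSeq 0.6.1 and DESeq2 1.20.0 without their roles. Strand use is not given in the sources used here. Whole fragments were recovered from the FPKM steps with the mean annotated transcript length; 81.08% of matched genes above 0 were whole in every library within 0.05, and all 10 genes described were. This covers counting error only. Gene models and sequence came from TAIR10.1, in which 99.95% of 32548 matched gene IDs had the same start and end. No replicate pair agreed within counting noise (chi-square per degree of freedom 14.3 to 221 over 36 pairs).

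FPKM was analysed as log2(FPKM + 1), a scale that understates changes of low genes. The 17788 genes that reached 1 FPKM in 4 or more libraries, all 10 genes included, were fitted with limma 3.58.1 in R 4.3.3, with a trend, as 6 group means over 24 libraries, two-sided, with Benjamini-Hochberg adjustment over all tested genes and calls at adjusted p under 0.05. The functions were tested on simulated data. "Lowest" and "without overlap" refer to all 4 plants of each group. Similar transcripts were sought with blastn 2.17.0 (90% identity over 100 bases or more) and the only one found was AT1G08667, the antisense gene that overlaps NPR1 (214 bases). The genes and lists were chosen with earlier results of these data known. Named were the 10 genes, their tested relatives, the 2 called genes of each other pathway list with the largest difference between BBX32-10 and Col-0 in each light, BBX32, HY5, and the 5 genes most like PR1. Alternatives were another pseudocount (0.1), other filters, rescaled libraries, fits of only the groups compared, a replicate block, voom and each library left out.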

Additional observations from a re-analysis of the deposited data

Results flagged for a closer look

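In 5 of 60 groups of 4 plants, 1 plant was far from the others by Dixon's 95% criterion for 4 values, which chance passes in about 1 in 20 groups. In BBX32-10 HL replicate 1 was highest for PR1 at 80.3 FPKM against 9.02 to 17.0 FPKM in the others, for PR5 at 40.4 against 3.25 to 7.03 FPKM, and for PCR1 at 23.7 against 0.441 to 1.55 FPKM. That plant also had the lowest BBX32 level of its group, 364 FPKM, and 684 genes lay over 1 log2 unit from the mean of the other 3 plants, against 243 to 505 in those; the part of either in these values was not tested. NPR1 was lowest in Col-0 HL replicate 1, at 11.5 against 13.7 to 14.0 FPKM. NIMIN1 was highest in BBX32-10 LL replicate 3, at 2.27 against 0.989 to 1.14 FPKM.

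NPR4 moved in opposite directions with light, by 0.36 on the log2 scale in BBX32-10 and by -0.44 in Col-0, with every HL plant above every LL plant in BBX32-10 and below them in Col-0. This difference was not tested, since BBX32-10 guided the choice of genes.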

How the results depend on the processing

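Of 12 called changes of the 10 genes in HL, 10 kept their call in all 31 alternatives each, the exceptions being NPR1 and NPR4 in hy5-2. The median difference between BBX32-10 and Col-0 in LL was -3.83 with a pseudocount of 0.1, -3.89 with voom and -3.79 to -3.24 with each library left out. In HL it was -2.67 to -1.97 with each library left out. Pathway genes called in BBX32-10 LL were 18, against 28 as reported, with a mean of 5 FPKM or more required, which tests fewer genes, and 25 to 30 with each library left out (16 to 19 in HL). Genes called in HL numbered 6 to 7 in Col-0 and 4 to 6 in hy5-2, and 0 in the comparisons of hy5-2 with Col-0. The cause was not tested for the other changes. Deviations of same-numbered libraries showed no steady likeness (r -0.529 to 0.471, over 0.1 in 6 of 28 pairs), which cannot exclude a pairing of plants. Between hy5-2 HL and Col-0 HL the values were 0.471, -0.065, 0.215 and 0.308. The replicate block called the same 6 and 6 genes in HL. Over all genes, calls between hy5-2 and Col-0 were 66 in LL (27 to 225 with each library left out), 428 in HL (240 to 738) and 116 in the interaction (63 to 317). After rescaling they were 62, 258 and 45, with 36.4% of those in HL higher in place of 14.5%, and 20% in place of 4.31% of those in the interaction. In fits of the groups compared they were 648 in HL and 292 in the interaction. In LL voom called 34. Between BBX32-10 and Col-0 in HL, 4199 genes were called, 1940 in a fit of these groups and 6272 without BBX32-10 HL replicate 1.

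Values near 0 that were never called changed sign. In hy5-2 against Col-0 in HL, NPR1 was -4.03e-06 with a pseudocount of 0.1 and -0.00073 with voom, and PCR1 was 0.0811 after rescaling. With each library left out, the differences in HL spanned -0.0841 to 0.0565 for NPR1, -0.502 to 0.463 for PCR1, -0.254 to 0.671 for PR1 and -0.131 to 0.648 for PR5. In LL they spanned -0.543 to 0.185 for PR1, -0.559 to 0.165 for PR2, -0.305 to 0.348 for PR5, -0.397 to 0.264 for PCR1, -0.392 to 0.0411 for NIMIN1 and -0.109 to 0.181 for AT1G76960. The interactions spanned -0.0989 to 0.826 for PR1, -0.149 to 0.63 for PR5, -0.479 to 0.485 for PCR1, -0.337 to 0.0966 for NIMIN1 and -0.165 to 0.0224 for NPR3. PR2 in HL spanned -0.0715 to 0.446 in hy5-2 and -0.699 to 0.0248 in Col-0. The likeness of NPR3 to PR1 was 0.626 in the hy5-2 and Col-0 libraries and 0.212 without the 2 of most extreme PR1. Depth limits NIMIN1 most, with 9 fragments in its lowest BBX32-10 HL library.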
